A study of Mus musculus with 39 samples.

Results

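The clustered protocadherins are cell-surface adhesion proteins encoded by 3 tandem gene clusters, alpha, beta and gamma, on mouse chromosome 18. Members were taken as every gene whose Entrez identifier maps to a mouse symbol of the Pcdha, Pcdhac, Pcdhb, Pcdhga, Pcdhgb or Pcdhgc series. The rule matched 58 genes, and 57 of them are in the table of 24100 genes: 14 alpha, 21 beta and 22 gamma members. Pcdhb21 was not analysed here. Pcdhgb8 is annotated as a transcribed pseudogene. Pcdhb1 had a mean of 0.0176 CPM (counts scaled to a library total of 1000000) over the 39 libraries and was too low to test in any fit, so counts of tested members are out of 56.

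Clustered protocadherins bind homophilically between cells, and each neuron puts a small set of them on its surface, which gives it an identity that its own branches recognise. Each alpha and gamma isoform joins its own first exon, with its own promoter, to constant exons that encode a shared cytoplasmic tail, whereas a beta gene is a single exon with no shared tail. Promoter choice depends on CTCF and cohesin looping between promoters and distant enhancers. The last alpha and gamma variable exons, the C-type isoforms Pcdhac1, Pcdhac2, Pcdhgc3, Pcdhgc4 and Pcdhgc5, are regulated apart from the rest and are used widely rather than by random choice.

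In GRCm38 (mm10) coordinates of RefSeq, the alpha cluster spans bases 36930285 to 37188897, the beta cluster 37264998 to 37521419 and the gamma cluster 37661775 to 37841873 of chromosome 18. Pcdhac1 (Entrez 353236) begins at 37090136 and Pcdhac2 (Entrez 353237) at 37143678. Pcdhgc3 (Entrez 93706) begins at 37806410, Pcdhgc4 (Entrez 93707) at 37815079 and Pcdhgc5 (Entrez 93708) at 37819546. All 14 alpha transcripts share 2860 bases, which is 48.6% to 54.9% of each, and up to 45.5% of a gamma transcript is shared with other gamma members. Reads from constant exons were therefore divided between isoforms when the counts were estimated, and levels of single alpha and gamma members are uncertain to that extent. Beta transcripts share no bases with each other except Pcdhb21 and Pcdhb22, for which the share is at most 9.67%.

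The study profiled mouse cerebellar granule cells and their progenitors, which divide in the outer layer of the early postnatal cerebellum before they leave the cell cycle and differentiate. Translating ribosome affinity purification (TRAP) pulls down the RNA on ribosomes tagged with EGFP-L10a. Neurod1-bacTRAP libraries came from cerebellar lysates of Tg(NeuroD1-Egfp-L10a) mice at P7, P12 and P21 (n = 5 each), with 1 total cerebellum input library per age. Math1-bacTRAP libraries came from granule cell progenitors isolated from Tg(Atoh1-Egfp-L10a) mice at P7 (n = 4; Math1 is another name for Atoh1). The Neurod1 and Math1 groups differ in the driver of the tag and in whether cells were isolated first, and these cannot be told apart. Granule cells from P6 to P7 mice were cultured for 5 days in vitro with 100 nM UNC1999, an inhibitor of the histone methyltransferases EZH2 and EZH1, and, as its control series, taken fresh (DIV0) or cultured for 2 or 5 days with DMSO (DIV2, DIV5; n = 2 each). All of these mice were C57Bl/6J. In a separate experiment, progenitors from P7 Ezh1(cKO/cKO);Atoh1-Cre mice (n = 4) and Ezh1(wt/wt);Atoh1-Cre mice (n = 5) were cultured for 5 days; every one of these 9 libraries carries Atoh1-Cre, which acts in the granule cell lineage, and no strain is labelled.

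Libraries held 12.1 to 38.5 M counts. The labels do not state whether the replicates of a group are independent animals or cultures, so p-values measure the spread between these libraries, which may be technical. CPM values below are relative to each library's own total, whereas fold changes come after TMM scaling, and a change is called where edgeR's quasi-likelihood test gave a Benjamini-Hochberg adjusted p under 0.05 over all genes tested. In all comparisons, fewer cells of a type and less RNA per cell cannot be told apart. Granule lineage markers were present in the TRAP libraries: the 7 granule neuron markers summed to 6746 to 9273 CPM in Neurod1 TRAP libraries and 3827 to 4600 CPM in Math1 TRAP libraries, and the 7 progenitor markers to 571 to 800 CPM at P7 in Neurod1 TRAP and 2654 to 3919 CPM in Math1 TRAP. The cultures also held markers of other cells at high levels: at DIV5 with DMSO the 7 vascular and meningeal markers summed to 8385 to 9141 CPM and the granule neuron markers to 3306 to 3438 CPM, and in Ezh1 cKO replicates 1 and 2 the 7 astrocyte markers summed to 9219 to 12057 CPM and the granule neuron markers to 2885 to 3027 CPM. The 9 libraries of the Ezh1 experiment fell into 2 sets on the first principal component, which held 84.6% of the variance over 11776 genes. Set A holds cKO replicates 1 and 2 and wt replicates 1 and 2, and set B holds cKO replicates 3 and 4 and wt replicates 3 to 5. The labels give no batch for these sets.

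Levels were very uneven between members. Per kilobase of transcript, the mean over the 39 libraries was highest for Pcdhgc3, at 58.5 CPM per kb, followed by Pcdhac2 at 8.67, Pcdhgb6 at 5.10, Pcdhga11 at 4.71, Pcdhga6 at 3.99 and Pcdhgc4 at 3.74 CPM per kb. Pcdhgc3 was highest in each of the 13 groups, but the order after it differed: in Math1 TRAP Pcdhga11 (4.25 CPM per kb) and Pcdhgb6 (3.66) followed, and at DIV2 Pcdhac2 (24.5) and Pcdhgc4 (9.79) did. Pcdhgc3 binds the Wnt pathway scaffold Axin1, and in mouse Pcdhac2 is needed for the even spread of serotonergic axons. Among beta members Pcdhb20 stood at 3.43 and Pcdhb17 at 3.10 CPM per kb, and among alpha members other than C-type Pcdha12 stood at 2.99 and Pcdha10 at 2.07 CPM per kb. The remaining C-type isoforms stood at 2.34 (Pcdhgc5) and 0.851 (Pcdhac1) CPM per kb.

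The mean summed level of each cluster in Neurod1 TRAP was highest at P12 among the ages. The single total cerebellum inputs were highest at P12 too. At P7, P12 and P21 they held 114, 193 and 154 CPM for alpha, 90.4, 137 and 121 CPM for beta, and 393, 597 and 567 CPM for gamma members. Alpha members summed to 82.8, 101.2, 114, 82.0 and 123 CPM in the 5 Neurod1 TRAP libraries at P7, to 157, 172, 148, 166 and 173 CPM at P12, and to 106, 105, 114, 121 and 112 CPM at P21. All P12 libraries lay above all P7 and P21 libraries. In the 4 Math1 TRAP libraries the alpha sum was 29.2, 23.9, 45.6 and 39 CPM, below every Neurod1 library. In culture the alpha sum was 71.3 and 70.2 CPM at DIV0, 369 and 360.1 CPM at DIV2, and 191 and 206 CPM at DIV5 with DMSO.

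In Neurod1 TRAP, beta members summed to 47.0 to 78.9 CPM at P7, 83.6 to 103 CPM at P12 and 59.1 to 66.6 CPM at P21. The P12 libraries again lay above those of both other ages, while P7 and P21 overlapped. Gamma members summed to 227 to 380 CPM at P7, 377 to 456 CPM at P12 and 213 to 325 CPM at P21, and 1 P7 library reached into the P12 range. In culture the beta sum was 118 and 115 CPM at DIV0, 253 and 264 CPM at DIV2, and 183 and 178 CPM at DIV5. The gamma sum was 679.8 and 689.6 CPM at DIV0, 845 and 912 CPM at DIV2, and 871 and 813 CPM at DIV5, a smaller change in proportion between DIV0 and DIV2 than in the other clusters.

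**Figure D1:**
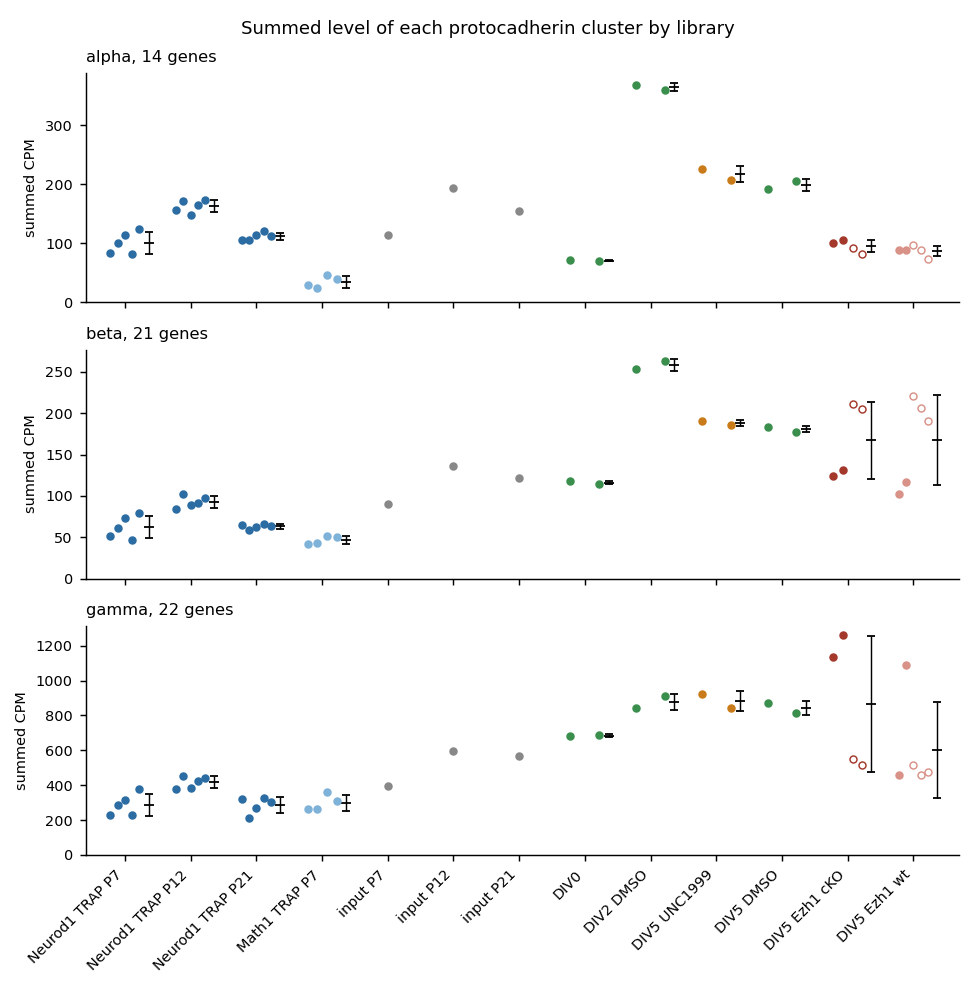
Summed CPM of the alpha, beta and gamma members in each library, by group. Circles are libraries, open circles are set B of the Ezh1 experiment, and black dashes with bars are the mean and SD of groups with 2 or more libraries. The alpha sum is lowest in Math1 TRAP (23.9 to 45.6 CPM) and highest at DIV2 (360.1 and 369 CPM).

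The spread of counts over isoforms also differed between groups. The effective number of isoforms (the exponential of the Shannon entropy of the shares, so equal to the number of members when all are equal) was 7.73 to 8.61 for alpha members in Neurod1 TRAP at P7, 8.36 to 9.04 at P12 and 6.98 to 7.56 at P21, and 5.70 to 7.18 in Math1 TRAP. For gamma members it was 6.17 to 7.40, 6.06 to 6.81 and 5.09 to 5.69 at the 3 ages. Pcdhgc3 alone held 54.6% to 59.8% of the gamma sum at P7 and 61.9% to 65.4% at P21. The beta cluster had no dominant member, with 15.2 to 18 effective isoforms over all groups. These numbers use CPM without length and are a description.

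Between Neurod1 and Math1 TRAP at P7, which sets a tag on differentiating granule cells against one on their progenitors, most alpha members were higher in Neurod1 libraries, beta members were higher or not called, and few gamma members were called. Over all members, 23 of 56 rose and 4 fell, where 36.5% of the 14759 genes tested rose and 35.8% fell. By cluster, 12 of 14 alpha members rose and none fell, 10 of 20 beta members rose and none fell, and 1 of 22 gamma members rose and 4 fell. The median log2 fold change was 1.99 for alpha, 0.51 for beta and -0.20 for gamma members, against 0.01 for all genes. Pcdha1 had 2 counts in all in the Math1 libraries and 3 of them were at 0, and without it the alpha median over 13 members was 1.91. Besides the progenitor markers, Purkinje cell markers (209 to 304 CPM in Neurod1 and 29.1 to 49.5 CPM in Math1 libraries), GABAergic interneuron markers (52.1 to 88.4 and 21.6 to 35 CPM) and unipolar brush cell markers (95.7 to 159.6 and 42.6 to 56.1 CPM) moved with this contrast, and their part in the result was not tested.

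Pcdha12 had 6.03, 12, 15.1, 9.68 and 13.0 CPM in Neurod1 libraries, against 3.42, 1.5, 2.68 and 3.14 CPM in Math1 libraries. The groups did not overlap, and the log2 fold change was 2.07 ± 0.25 (SE; adjusted p = 2.0e-07, edgeR). Pcdha4 had 2.92, 2.79, 3.24, 2.83 and 6.27 CPM in Neurod1 libraries, against 0, 0.701, 0 and 0.414 CPM in Math1 libraries. Its fitted log2 fold change of 3.52 ± 0.51 (adjusted p = 2.4e-06) rests on Math1 libraries at or near 0. Pcdha7 had 4.19 to 4.93 CPM in Neurod1 libraries, against 0, 0, 2.17 and 1.08 CPM in Math1 libraries. The alpha members not called were Pcdha2, with a log2 fold change of 0.31 ± 0.31, and Pcdha8, with 0.77 ± 0.51.

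Of the beta members, Pcdhb14 had 2.40, 3.01, 3.51, 1.74 and 3.72 CPM in Neurod1 libraries, against 1.05, 1.03, 1.40 and 0.910 CPM in Math1 libraries. The groups did not overlap, and the log2 fold change was 1.37 ± 0.24 (adjusted p = 3.6e-05, edgeR). Pcdhb13 also rose, by 1.05 ± 0.33 on the log2 scale (adjusted p = 0.0070). Pcdhb17 and Pcdhb20, the highest beta members per kb, were not called, and Pcdhb20 had 3.66 to 6.09 CPM in Neurod1 libraries and 3.50 to 5.67 CPM in Math1 libraries.

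The gamma members that fell were Pcdhga11, Pcdhgb6, Pcdhga5 and Pcdhga10. Pcdhga11 had 8.30, 10.9, 14.1, 8.77 and 15.3 CPM in Neurod1 libraries, against 16.1, 19.7, 21.2 and 23.8 CPM in Math1 libraries. The groups did not overlap, and the log2 fold change was -0.82 ± 0.19 (adjusted p = 0.00055, edgeR). Pcdhgb6 had 8.46, 11.7, 11.3, 8.41 and 17.2 CPM in Neurod1 libraries, against 13.2, 16.0, 25.5 and 13.9 CPM in Math1 libraries. Those ranges overlapped, with a log2 fold change of -0.59 ± 0.19 (adjusted p = 0.0095), and the call was lost without Math1 replicate 3 (adjusted p = 0.079). The 1 gamma member that rose, Pcdhga1, had a log2 fold change of 0.91 ± 0.34 (adjusted p = 0.022) and, like Pcdhga5, lost its call without Math1 replicate 1 or replicate 3 and in a fit of these 2 groups alone.

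From P7 to P12, members of all 3 clusters rose and none fell. Between Neurod1 TRAP at P12 and at P7, 36 of 56 members were called higher and 0 lower, where 31.5% of all genes tested were called higher and 36.7% lower. The fold change was positive for 54 members, and the median log2 fold change was 0.58 for the members and -0.04 for all genes. By cluster, 9 of 14 alpha members rose (median 0.76), 15 of 20 beta members (median 0.59) and 12 of 22 gamma members (median 0.47). Over the same step, progenitor markers summed to 110 to 138 CPM at P12 and 571 to 800 CPM at P7, and the 6 Purkinje cell markers to 487 to 600 CPM at P12 and 209 to 304 CPM at P7. Unipolar brush cell markers summed to 385 to 707 CPM at P12 and 95.7 to 159.6 CPM at P7, and astrocyte markers to 494 to 581 and 159 to 292 CPM. GABAergic interneuron markers summed to 110 to 150 and 52.1 to 88.4 CPM, and oligodendrocyte lineage markers to 344 to 509 and 240 to 314 CPM. The part of all these cell types was not tested.

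Pcdha2 had 4.31, 5.46, 5.91, 3.29 and 5.88 CPM at P12, against 1.08, 2.05, 2.16, 2.32 and 1.92 CPM at P7. Every P12 library exceeded every P7 library, and the log2 fold change was 1.41 ± 0.26 (SE; adjusted p = 4.8e-05, edgeR). Pcdhb9 had 5.14, 6.66, 4.61, 4.44 and 4.80 CPM at P12, against 1.13, 2.6, 4.16, 2.46 and 2.38 CPM at P7. Again the ages did not overlap, with a log2 fold change of 1.04 ± 0.21 (adjusted p = 0.00014). Pcdhga6 had 13.7, 18.7, 16.5, 15.2 and 17.7 CPM at P12, against 6.88, 8.14, 8.17, 7 and 11.3 CPM at P7. It did not overlap either, with a log2 fold change of 1.01 ± 0.19 (adjusted p = 7.4e-05). Such a gap was not the rule: for most members, including most of those called higher, the P12 and P7 libraries overlapped.

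Other members with large rises were Pcdha3 (log2 fold change 1.05 ± 0.25), Pcdhb13 (0.97 ± 0.25), Pcdhb14 (0.93 ± 0.19) and Pcdhga5 (0.87 ± 0.19). Pcdhb20 had 8.15, 10.8, 8.23, 8.69 and 9.07 CPM at P12, against 3.66, 6.09, 5.70, 3.88 and 5.64 CPM at P7. Its ages did not overlap, and the log2 fold change was 0.88 ± 0.15 (adjusted p = 1.8e-05, edgeR). The 2 members with a negative fold change, neither of them called, were Pcdhb22 (log2 fold change -0.13 ± 0.13) and Pcdhgc4 (-0.14 ± 0.14).

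From P12 to P21 the direction was the opposite one: 0 of 56 members were called higher and 32 lower, where 32.4% of all genes were called higher and 32.7% lower. The fold change was negative for 55 members, and the median log2 fold change was -0.53 for the members and 0.00 for all genes. The members that fell were 8 of 14 alpha, 10 of 20 beta and 14 of 22 gamma members. This comparison and the one before it share the P12 libraries, so the 2 sets of values are not independent. With library size in place of TMM, the all-gene median moved to -0.15 and 41 members were called. Markers of unipolar brush cells, another excitatory neuron of the cerebellum, summed to 1331 to 1768 CPM at P21 and 385 to 707 CPM at P12, and their part was not tested.

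Pcdhb5 had 1.53, 1.63, 1.51, 1.52 and 2.12 CPM at P21, against 3.33, 4.80, 4.15, 3.53 and 4.90 CPM at P12. All P21 libraries lay below all P12 libraries, and the log2 fold change was -1.16 ± 0.17 (SE; adjusted p = 4.2e-06, edgeR). Pcdhb2 had 0.363, 0.184, 0.628, 0.401 and 0.483 CPM at P21, against 0.745, 1.51, 1.55, 1.32 and 1.26 CPM at P12. It too showed no overlap, with a log2 fold change of -1.46 ± 0.27 (adjusted p = 7.7e-05). Pcdhb4 fell by 1.01 ± 0.26 on the log2 scale (adjusted p = 0.0015).

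Among alpha members, Pcdha10 had 7.85, 7.18, 9.64, 10.1 and 10.3 CPM at P21, against 13.1, 20.9, 15.2, 20.1 and 17.8 CPM at P12. The ages did not overlap, and the log2 fold change was -0.80 ± 0.19 (adjusted p = 0.0012, edgeR). Pcdha2 and Pcdha9 fell by 0.86 ± 0.25 and 0.83 ± 0.22. Among gamma members, Pcdhga3 had 3.05, 1.57, 2.03, 2.35 and 3.11 CPM at P21, against 4.74, 4.71, 3.59, 4.72 and 5.15 CPM at P12. Its ages did not overlap either, and the log2 fold change was -0.77 ± 0.22 (adjusted p = 0.0050). Pcdhga8 fell by 0.68 ± 0.18.

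Some members showed little difference between P21 and P12. Pcdhb20 had 9.84, 8.11, 6.96, 7.07 and 8.38 CPM at P21, overlapping its P12 values, with a log2 fold change of -0.00 (adjusted p = 0.98, edgeR). Pcdhb12 had 1.78, 2.43, 1.74, 1.75 and 1.99 CPM at P21 and 1.65, 2.71, 1.67, 1.69 and 1.96 CPM at P12, and was the single member with a positive fold change (0.17 ± 0.21, not called). Along the beta cluster, the Spearman correlation between a member's place on the chromosome and this log2 fold change was 0.51 over 20 members, with the larger falls at the start of the cluster; for the 19 gamma A and B types it was 0.58, and for the 12 alpha members without C-type 0.05. In other comparisons the alpha value was 0.80 (TRAP against input) and -0.75 (DIV5 against DIV2). These are descriptions over members that share the same libraries.

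**Figure D2:**
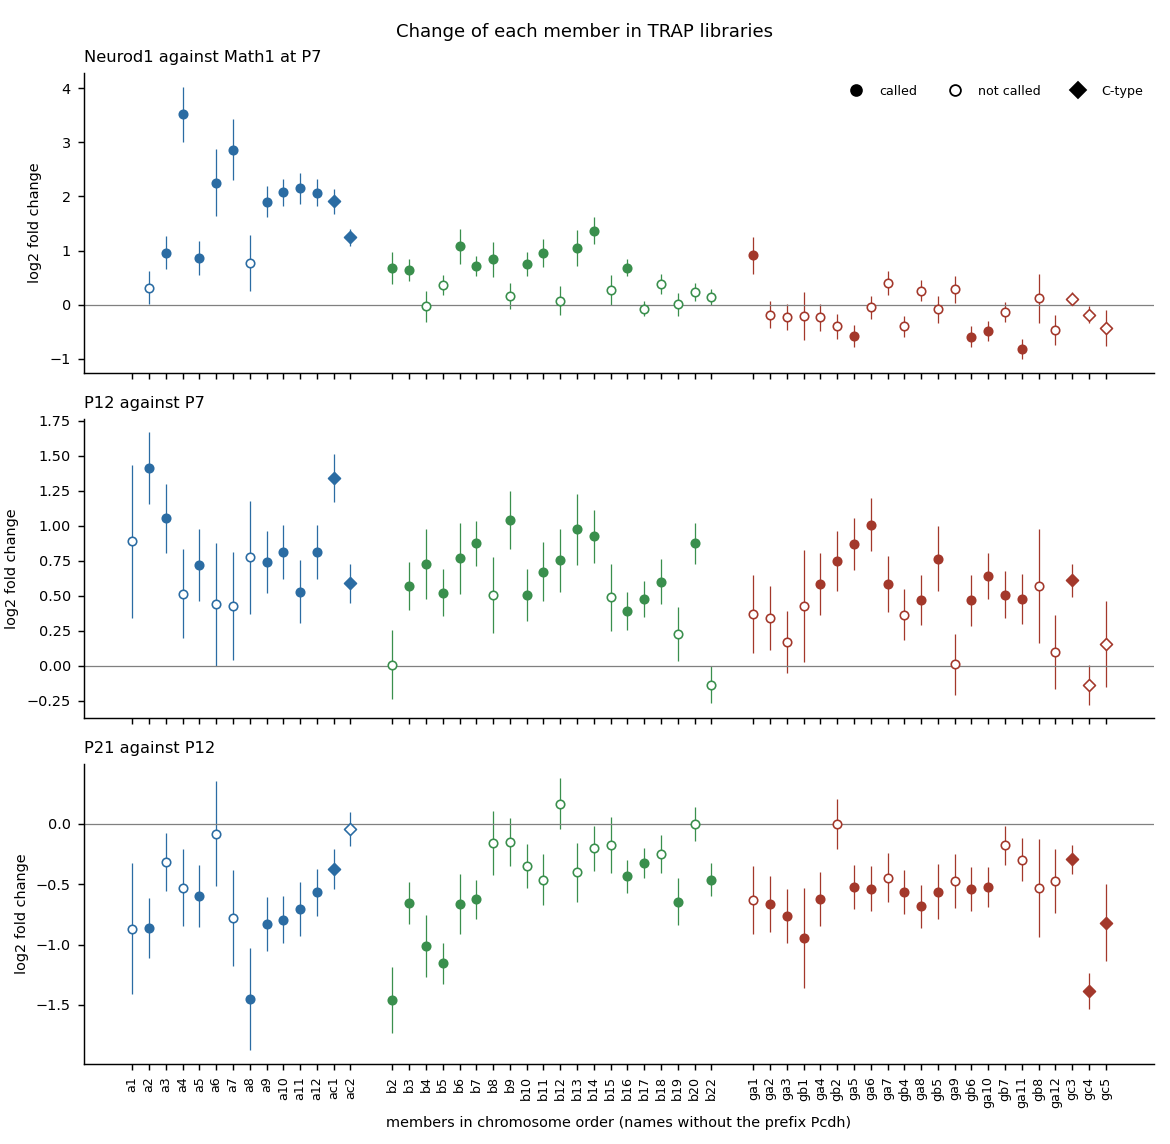
Log2 fold change of each tested member in Neurod1 against Math1 TRAP at P7, P12 against P7 and P21 against P12, in chromosome order (alpha blue, beta green, gamma red). Filled symbols are called, diamonds are C-type isoforms and bars are SE; Pcdha1 is left out of the top panel because Math1 libraries held 2 counts of it. In the middle panel 36 members are called higher, and in the bottom panel 32 are called lower.

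Across the whole interval, P21 against P7, most members were not called. Of 56 members, 11 were called higher and 5 lower, where 38.9% of all genes were called higher and 42.5% lower, and the members' median log2 fold change was 0.11, against -0.05 for all genes. With library size in place of TMM, which moved the all-gene median to -0.22, the members' median turned to -0.07, and 7 were called higher and 8 lower. The 5 lower members were Pcdhgc4, Pcdhb2, Pcdhb5, Pcdhb22 and Pcdhga3, of which Pcdhga3 lost its call without P7 replicate 3, P21 replicate 2 or P21 replicate 3. Pcdhb22 had 4.32, 2.95, 3.37, 4.72 and 3.73 CPM at P21, against 6.11, 6.20, 7.02, 5.84 and 7.48 CPM at P7, with no overlap and a log2 fold change of -0.60 ± 0.13 (adjusted p = 0.00033, edgeR). Of the higher members, Pcdhb12 had a log2 fold change of 0.92 ± 0.22 (adjusted p = 0.00075) and Pcdhb20 one of 0.87 ± 0.15 (adjusted p = 1.1e-05), and both had no library at P21 below a library at P7. At P21 and P7, unipolar brush cell markers summed to 1331 to 1768 and 95.7 to 159.6 CPM, progenitor markers to 30.7 to 41.3 and 571 to 800 CPM, and Purkinje cell markers to 686 to 838 and 209 to 304 CPM; their part was not tested.

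Neurod1 TRAP was compared with total cerebellum input with age as a factor, 15 libraries against 3. Few members were called: 1 of 56 higher and 14 lower, where 36.6% of the 15479 genes tested were called higher and 41.2% lower. The lower members were 6 beta and 8 gamma members, and the 1 higher member was Pcdha10. The call of Pcdha10 (log2 fold change 0.43 ± 0.17, adjusted p = 0.025) was lost when any one of the 3 inputs was left out. The count depended on the scaling, since with library size alone the all-gene median moved from -0.07 to -0.46 and 40 members were called lower. It was 8 lower and 0 higher without the P21 input.

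Pcdhga1 had 0.983 to 2.91 CPM in the TRAP libraries, with a median of 1.33 CPM, against 3.69, 4.41 and 4.65 CPM in the inputs at P7, P12 and P21. No TRAP library reached the lowest input, and the log2 fold change was -1.08 ± 0.19 (adjusted p = 4.2e-05, edgeR). Pcdhb16 had 3.56 to 7.26 CPM in the TRAP libraries, with a median of 4.61 CPM, against 9.36, 12.9 and 11.2 CPM in the inputs. It did not overlap either, with a log2 fold change of -0.73 ± 0.13 (adjusted p = 3.3e-05). Pcdhb19 and Pcdhb18 were lower by 0.91 ± 0.17 and 0.78 ± 0.14 on the log2 scale. Inputs held more of the other cell types: Purkinje markers summed to 209 to 838 CPM in TRAP libraries and 2132, 3042 and 4644 CPM in inputs, and their part was not tested.

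In culture, nearly every member rose between DIV0 and DIV2. Of 56 members, 51 were called higher and 0 lower at DIV2, where 36.4% of the 15978 genes tested were called higher and 35% lower. All 14 alpha members rose (median log2 fold change 2.44), as did all 20 beta members tested (median 1.23) and 17 of 22 gamma members (median 0.67), against a median of 0.02 for all genes. Without Pcdha1 and Pcdha6, each of which was at 0 in 1 DIV0 library, the alpha median was 2.28. Of the 36 members called higher at P12 against P7, 33 were among these 51, where 91.1% of all members tested were. Progenitor markers summed to 142 to 176 CPM at DIV2 and 2624 to 2708 CPM at DIV0, and vascular and meningeal markers to 2155 to 3640 CPM at DIV2 and 508 to 513 CPM at DIV0; their part was not tested.

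Pcdha12 had 52.6 and 50.3 CPM at DIV2, against 7.46 and 7.56 CPM at DIV0, a log2 fold change of 2.81 ± 0.10 (SE; adjusted p = 5.8e-12, edgeR). The gap between the times was far larger than that between replicates. Pcdhb11 had 10.7 and 11.9 CPM at DIV2, against 3.20 and 2.69 CPM at DIV0, a log2 fold change of 1.98 ± 0.15 (adjusted p = 2.3e-08). Pcdhb20 had 25.5 and 26.1 CPM at DIV2, against 11.7 and 11.9 CPM at DIV0, a log2 fold change of 1.16 ± 0.10. Pcdhb17, with 31.1 and 33.5 CPM at DIV2 and 16.8 and 15.5 CPM at DIV0, rose by a similar amount (1.03 ± 0.09).

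The gamma A and B types ran from a clear rise to none in the order of the chromosome, and all 3 gamma C-type isoforms after them were called higher. Pcdhga2, near the start of the cluster, had 14.8 and 15.8 CPM at DIV2, against 7.15 and 5.12 CPM at DIV0, a log2 fold change of 1.37 ± 0.17 (adjusted p = 7.5e-06, edgeR). Pcdhga6 had 43.8 and 46.5 CPM at DIV2, against 18.4 and 21.8 CPM at DIV0, a log2 fold change of 1.19 ± 0.09. Pcdhga11, near the end, had 46.9 and 44.9 CPM at DIV2 and 47.0 and 45.4 CPM at DIV0, a log2 fold change of 0.02. The members not called were Pcdhgb6, Pcdhgb7, Pcdhgb8, Pcdhga11 and Pcdhga12, with log2 fold changes of -0.05 to 0.08. Over the 19 gamma A and B types, place on the chromosome and log2 fold change had a Spearman correlation of -0.83, a description over members that share 4 libraries and constant exons.

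Between DIV2 and DIV5 with DMSO, alpha and beta members fell and most gamma members were not called. Of 56 members, 2 were called higher and 36 lower at DIV5, where 31.1% of all genes were called higher and 35.7% lower. By cluster, 12 of 14 alpha members fell (median log2 fold change -1.05), 17 of 20 beta members (median -0.73) and 7 of 22 gamma members (median -0.19), against -0.05 for all genes. The 2 that rose were Pcdhgc5 and Pcdhga10. With library size in place of TMM the all-gene median moved to 0.09, and 4 members were called higher and 33 lower. This comparison shares the DIV2 libraries with the one before it. Vascular and meningeal markers summed to 8385 to 9141 CPM at DIV5 and 2155 to 3640 CPM at DIV2, astrocyte markers to 2001 to 2066 CPM and 814 to 820 CPM, and granule neuron markers to 3306 to 3438 CPM and 5506 to 5668 CPM; their part was not tested.

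Pcdha7 had 8.69 and 8.26 CPM at DIV5, against 17.4 and 19.4 CPM at DIV2, a log2 fold change of -1.26 ± 0.12 (SE, edgeR). Pcdha11 had 8.99 and 9.48 CPM at DIV5, against 18.1 and 20.9 CPM at DIV2 (-1.21 ± 0.12). Neither overlapped between the times. Pcdhb4 had 3.26 and 3.78 CPM at DIV5, against 6.66 and 7.97 CPM at DIV2, a log2 fold change of -1.18 ± 0.17. Pcdhb17 fell less, to 27.1 and 28.5 CPM at DIV5 (-0.35 ± 0.09), and lost its call without DIV2 replicate 2. Pcdhga11 fell, with 32.3 and 28.0 CPM at DIV5 and a log2 fold change of -0.75 ± 0.08 (adjusted p = 1.5e-06). Pcdhga10 had 39.7 and 35.3 CPM at DIV5, against 25.8 and 28.7 CPM at DIV2, a log2 fold change of 0.32 ± 0.10 (adjusted p = 0.011) that lost its call without DIV5 replicate 1.

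Between DIV5 and DIV0, 41 of 56 members were called higher and 2 lower, where 40.2% of all genes were called higher and 38.2% lower. The higher members were 12 of 14 alpha, 16 of 20 beta and 13 of 22 gamma members, and the members' median log2 fold change was 0.68, against 0.04 for all genes (0.15 with library size in place of TMM). The 2 lower members were Pcdhga11 (log2 fold change -0.73 ± 0.08, adjusted p = 1.2e-06, edgeR) and Pcdhgb6 (-0.26 ± 0.08, adjusted p = 0.010), and the call of Pcdhgb6 was lost without DIV0 replicate 2 and with library size alone. Pcdhga2 had 23 and 19.1 CPM at DIV5, above both DIV0 values, with a log2 fold change of 1.69 ± 0.16 (adjusted p = 5.5e-07). At DIV5 and DIV0, vascular and meningeal markers summed to 8385 to 9141 and 508 to 513 CPM, microglia markers to 335 to 352 and 45.8 to 46.8 CPM, astrocyte markers to 2001 to 2066 and 490.4 to 495 CPM, and progenitor markers to 264 to 270.1 and 2624 to 2708 CPM; their part was not tested.

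**Figure D3:**
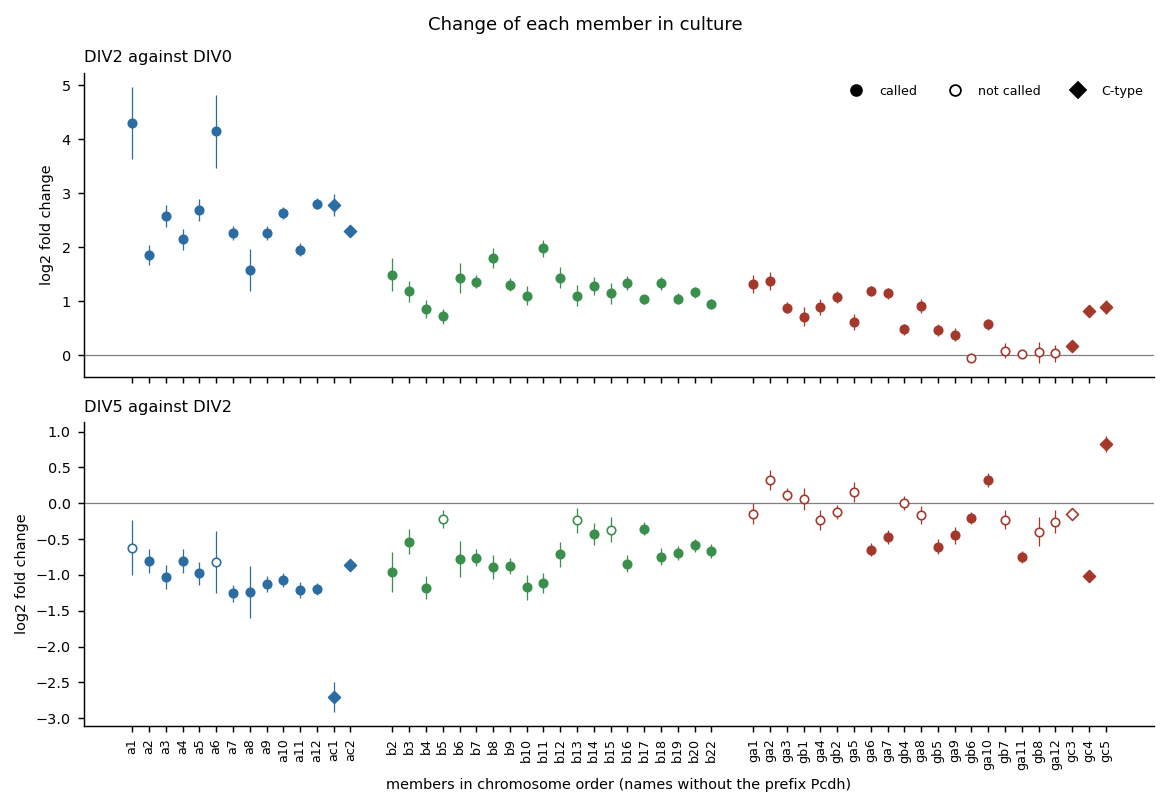
Log2 fold change of each tested member at DIV2 against DIV0 and at DIV5 against DIV2 (both DMSO), in chromosome order, with symbols as in the plot of TRAP libraries and bars of SE. In the top panel 51 members are called higher, with gamma values that drop towards the end of the A and B types; in the bottom panel 36 are called lower. Pcdha1 and Pcdha6 had 1 DIV0 library at 0.

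The 5 C-type isoforms were all called higher at DIV2 against DIV0, where 51 of 56 members and 36.4% of all genes were. At P21 against P12, 4 of them were called lower and Pcdhac2 was not called. There 32 of 56 members and 32.7% of all genes were called lower. At DIV5 against DIV2, 1 C-type isoform was called higher and 3 lower. Of the 56 members, 2 were called higher and 36 lower at that step, and of all genes 31.1% and 35.7%. Pcdhac1 had 3.58, 5.06, 3.01, 2.86 and 4.43 CPM in Neurod1 TRAP at P7, 10.9, 10.4, 8.79, 8.04 and 9.25 CPM at P12, and 6.83, 6.23, 7.90, 5.78 and 6.04 CPM at P21. The 3 ages did not overlap, with log2 fold changes of 1.34 ± 0.17 for P12 against P7 (adjusted p = 4.5e-07, edgeR) and 0.97 ± 0.17 for P21 against P7 (adjusted p = 2.2e-05). The fall from P12 to P21 was called narrowly (-0.37 ± 0.16, adjusted p = 0.049), and the call was lost when any one library was left out other than P12 replicate 4 or P21 replicate 3. In Math1 TRAP it had 1.17, 0.934, 0.446 and 1.49 CPM, below every Neurod1 library, and Neurod1 against Math1 gave 1.91 ± 0.23 (adjusted p = 2.1e-07).

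Pcdhac1 also had the steepest course in culture among the C-type isoforms. It had 1.25 and 1.95 CPM at DIV0, 10.3 and 12.2 CPM at DIV2, and 1.69 and 2.05 CPM at DIV5 with DMSO. The log2 fold change was 2.78 ± 0.21 at DIV2 against DIV0 and -2.71 ± 0.21 at DIV5 against DIV2 (adjusted p = 2.1e-08 and 3.7e-08, edgeR). At DIV5 its values overlapped those of DIV0 (0.08, adjusted p = 0.82).

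Pcdhac2 had 29.2, 39.7, 42.4, 31.9 and 47.2 CPM at P7, 57.5, 58.3, 51.8, 58.2 and 55.9 CPM at P12, and 47.1, 46.2, 50.8, 52.7 and 48.5 CPM at P21. It was higher at P12 than at P7 (log2 fold change 0.59 ± 0.14, adjusted p = 0.00082, edgeR) and was not called between P21 and P12 (-0.05 ± 0.14). In Math1 TRAP it had 11.1, 11.8, 23.9 and 18.8 CPM, below all Neurod1 libraries. In culture it had 28.6 and 30.8 CPM at DIV0, 145 and 143 CPM at DIV2, and 82.7 and 92.8 CPM at DIV5. The log2 fold change was 2.30 ± 0.07 at DIV2 against DIV0 and 1.45 ± 0.07 at DIV5 against DIV0, so unlike Pcdhac1 it was called higher at DIV5 than at DIV0.

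Pcdhgc3 had 133, 166, 173, 136 and 213 CPM at P7, 215, 274, 222, 254 and 267 CPM at P12, and 202, 139, 173, 201 and 188 CPM at P21. The log2 fold change was 0.61 ± 0.12 for P12 against P7 (adjusted p = 0.00010, edgeR) and -0.30 ± 0.12 for P21 against P12 (adjusted p = 0.032), and the second call was lost without any one of P12 replicates 2, 4 and 5 or P21 replicates 2 and 3. In Math1 TRAP it had 129, 134, 180.1 and 164 CPM, overlapping the Neurod1 P7 values, and was not called (0.11, adjusted p = 0.43). It was almost level in culture, with 349.7 and 350.0 CPM at DIV0, 369.7 and 399.7 CPM at DIV2, and 399.7 and 368 CPM at DIV5. The small rise at DIV2 (0.17 ± 0.06, adjusted p = 0.034) was lost with DESeq2 and without either DIV0 library or DIV2 replicate 2.

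Pcdhgc4, which in mouse is the gamma isoform needed for neuronal survival, had 11.4, 13.6, 16.2, 9.86 and 19.8 CPM at P7, 10.9, 13.6, 11.3, 12.9 and 14.5 CPM at P12, and 5.09, 4.33, 3.62, 4.84 and 3.89 CPM at P21. Values at P7 and P12 overlapped and all P21 values lay below them, with log2 fold changes of -1.39 ± 0.15 for P21 against P12 (adjusted p = 4.2e-08, edgeR) and -1.52 ± 0.15 for P21 against P7 (adjusted p = 3.5e-09). The single inputs had 21.7, 28.5 and 22.9 CPM at P7, P12 and P21, so the P21 input lay below the P12 input but not below the P7 input. TRAP against input gave a log2 fold change of -1.08 ± 0.20 (adjusted p = 8.2e-05). In culture Pcdhgc4 had 28.7 and 27.9 CPM at DIV0, 46.4 and 51.9 CPM at DIV2, and 26.6 and 26.9 CPM at DIV5. It rose at DIV2 by 0.82 ± 0.08 and fell at DIV5 by 1.01 ± 0.08 on the log2 scale.

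Pcdhgc5, which binds GABA-A receptors, was low in TRAP libraries, with 1.29 to 2.26 CPM at P7, 1.58 to 2.18 CPM at P12 and 0.706 to 1.15 CPM at P21. The inputs had 4.09, 7.03 and 5.73 CPM at these ages, above every TRAP library of Neurod1, and TRAP against input gave -1.60 ± 0.18 (adjusted p = 2.0e-07, edgeR). In culture it climbed at each time, with 5.27 and 5.99 CPM at DIV0, 10.1 and 10.7 CPM at DIV2, and 19.6 and 20.9 CPM at DIV5. It rose by 0.90 ± 0.13 at DIV2 against DIV0 (adjusted p = 2.1e-05) and by 0.83 ± 0.11 at DIV5 against DIV2 (adjusted p = 1.1e-05).

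**Figure D4:**
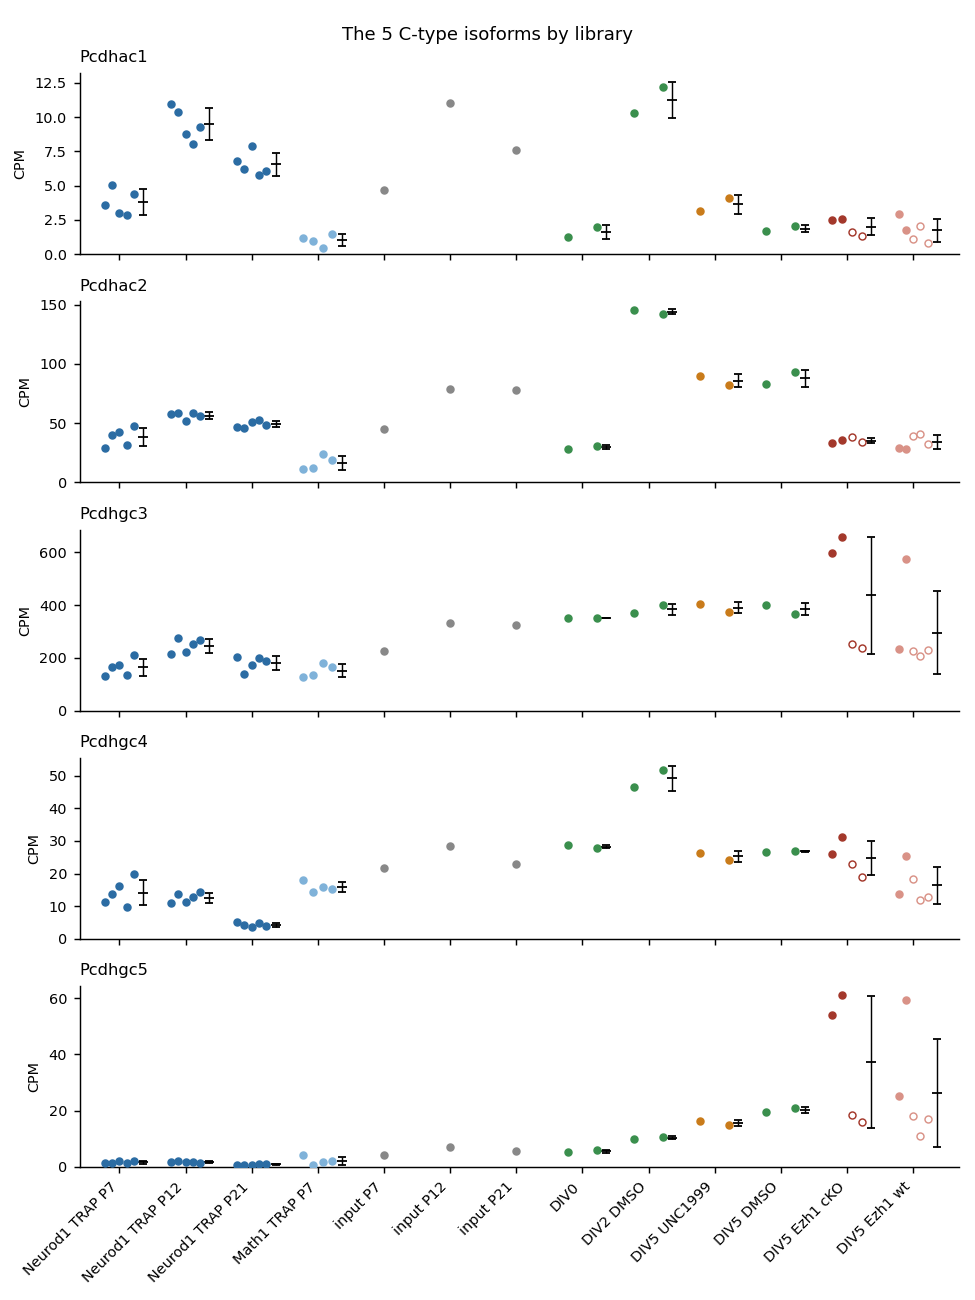
CPM of Pcdhac1, Pcdhac2, Pcdhgc3, Pcdhgc4 and Pcdhgc5 in each library, by group, with a linear scale of its own for each isoform. Circles are libraries, open circles are set B of the Ezh1 experiment, and black bars are mean and SD. Pcdhac1 peaks at P12 and at DIV2 (10.3 and 12.2 CPM), Pcdhgc4 is low at P21 (3.62 to 5.09 CPM), and Pcdhgc5 is highest in culture at DIV5.

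UNC1999 was set against DMSO at DIV5 to ask what inhibition of EZH2 and EZH1 did in these cultures. Few members were called: 5 of 56 higher and 1 lower with UNC1999, where 6.36% of all genes were called higher and 5.53% lower. The members' median log2 fold change was 0.10, against 0.00 for all genes, and no beta member was called. Pcdhac1 had 3.14 and 4.11 CPM with UNC1999, against 1.69 and 2.05 CPM with DMSO, a log2 fold change of 0.96 ± 0.24 (SE; adjusted p = 0.017, edgeR). Pcdhga11 had 38.0 and 40.0 CPM with UNC1999, against 32.3 and 28.0 CPM with DMSO (0.37 ± 0.08, adjusted p = 0.0094).

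The other members called higher were Pcdhga9 (13.5 and 13.2 CPM with UNC1999, against 8.99 and 9.99 CPM with DMSO), Pcdha7 (10.8 and 11.7, against 8.69 and 8.26 CPM) and Pcdha12 (34.1 and 29.4, against 25.0 and 24.7 CPM). Pcdhgc5 was called lower, with 16.4 and 15 CPM with UNC1999, against 19.6 and 20.9 CPM with DMSO (log2 fold change -0.38 ± 0.10, adjusted p = 0.028, edgeR). The groups did not overlap for the 6 members called, which is a weak criterion with 2 libraries a group. The count fell to 1 without DMSO replicate 1, DMSO replicate 2 or UNC1999 replicate 2, to 3 without UNC1999 replicate 1 and to 2 with DESeq2, and each of the 6 lost its call under at least 1 of these. Granule neuron markers summed to 4483 to 4578 CPM with UNC1999 and 3306 to 3438 CPM with DMSO, and vascular and meningeal markers to 6885 to 6991 and 8385 to 9141 CPM; their part was not tested.

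In the Ezh1 experiment the targeted gene, Ezh1, had 34.8, 36.5, 35.6 and 33.7 CPM in cKO cultures, against 40.7, 42.1, 49.9, 47.5 and 41.0 CPM in wt cultures. The groups did not overlap, but the log2 fold change was -0.34 ± 0.09 with an adjusted p of 1.0 (edgeR). Gene-level counts do not separate transcripts with the deleted exons from others. No member was called: 0 of 56, where 0% of the 14461 genes tested were called, and 0 members and 169 genes had an unadjusted p under 0.05. DESeq2 called 0 members, with 1 member and 272 genes at an unadjusted p under 0.05. With the replicate number as a block, edgeR called 0, with 10 members and 1430 genes at an unadjusted p under 0.05.

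Gamma members leaned to higher values in cKO cultures without passing the test, with 21 of 22 fold changes positive and a median log2 fold change of 0.50, against -0.01 for all genes. The gamma sum was 1138 and 1262 CPM in cKO replicates 1 and 2, against 461 and 1089.7 CPM in wt replicates 1 and 2 of the same set. In set B it was 549 and 518 CPM in cKO cultures, against 513, 461 and 476 CPM in wt cultures. The groups did not overlap within either set, and wt replicate 1 stood well below wt replicate 2. Without wt replicate 2, 19 members had an unadjusted p under 0.05 (edgeR) and 0 were called. Without wt replicate 1, 0 of 53 members tested had one and 0 were called. The median log2 fold change over all members tested was then 0.08, against 0.18 with all libraries. Within set A both cKO values lay above both wt values for 14 of 22 gamma, 10 of 21 beta and 5 of 14 alpha members; within set B this was so for 4, 0 and 0 members. Over all 14461 genes tested the share was 25.2% in set A and 8.59% in set B.

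Among C-type isoforms, Pcdhgc3 had 599, 658, 253 and 237 CPM in cKO cultures, against 233, 576, 227, 208 and 231 CPM in wt cultures, a log2 fold change of 0.56 ± 0.44. Pcdhgc4 had 26.1, 31.3, 23 and 18.8 CPM in cKO cultures, against 13.6, 25.3, 18.4, 11.8 and 12.8 CPM in wt cultures (0.59 ± 0.26). Pcdhgc5 had 53.9, 61.3, 18.3 and 16.1 CPM in cKO cultures, against 25.1, 59.3, 18.2, 11.1 and 17.1 CPM in wt cultures (0.50 ± 0.59). The ranges overlapped for all 3, and the sets differed more than the genotypes for Pcdhgc3 and Pcdhgc5.

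All set B libraries lay above all set A libraries for 16 of 21 beta members and 1 of 14 alpha members, and below them for 3 alpha and 2 gamma members, where 30.4% of all genes tested lay above and 24.1% below. Pcdhb17 had 24.1 and 26.8 CPM in cKO and 28.4, 26.8 and 25.6 CPM in wt libraries of set B, and 15.3 and 13.7 CPM in cKO and 14.3 and 16.7 CPM in wt libraries of set A. The 3 alpha members, Pcdha4, Pcdha6 and Pcdha7, were listed at 0 in all 5 set B libraries. Over all genes, 13 were at 0 in all set B libraries and at 10 CPM or more in all set A libraries, and whether those genes were in the annotation used for set B is not given in the sources used here, so a 0 there may not be a measurement. Pcdha4 had 3.71 and 2.95 CPM in cKO and 5.62 and 5.13 CPM in wt libraries of set A. Astrocyte markers summed to 9219 to 12057 CPM (cKO) and 5694 to 11693 CPM (wt) in set A, and to 4880 to 6106 CPM (cKO) and 2420 to 4787 CPM (wt) in set B; their part was not tested.

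A further source of counts bears on the gamma cluster. The table holds 3 predicted loci, Gm37013, Gm38666 and Gm38667, whose annotated transcripts run from an alpha variable exon to the gamma constant exons. Gm38667 had 22.6, 41.9, 38.2, 42.4 and 39.5 CPM in Neurod1 TRAP at P7, 100.7, 107, 128, 116 and 121 CPM at P12, and 113, 215, 177, 151 and 145 CPM at P21, where the P7 libraries lay below both later ages. The log2 fold change was 1.66 ± 0.45 for P12 against P7 (adjusted p = 0.0038, edgeR) and 0.64 ± 0.43 for P21 against P12 (adjusted p = 0.21). The inputs had 39.5, 11.4 and 24.8 CPM at P7, P12 and P21.

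With the read-through loci added to the gamma members, the sum was 252 to 419 CPM at P7, 478 to 564 CPM at P12 and 428 to 475 CPM at P21, so the P21 libraries, which overlapped P7 in the gamma sum alone, lay above P7. The loci held 8.97% to 15.7% of this sum at P7, 19% to 25.1% at P12 and 25.9% to 50.3% at P21. At DIV5, UNC1999 cultures summed to 941 and 922 CPM and DMSO cultures to 930 and 921 CPM, against 682 to 693 CPM at DIV0. In Ezh1 wt replicate 1 the locus Gm38667 had 434 CPM, and with the loci added the set A sums were 1229 and 1333 CPM in cKO cultures, against 895 and 1212 CPM in wt cultures. How far the read-through loci take counts that belong to gamma members was not tested.

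**Figure D5:**
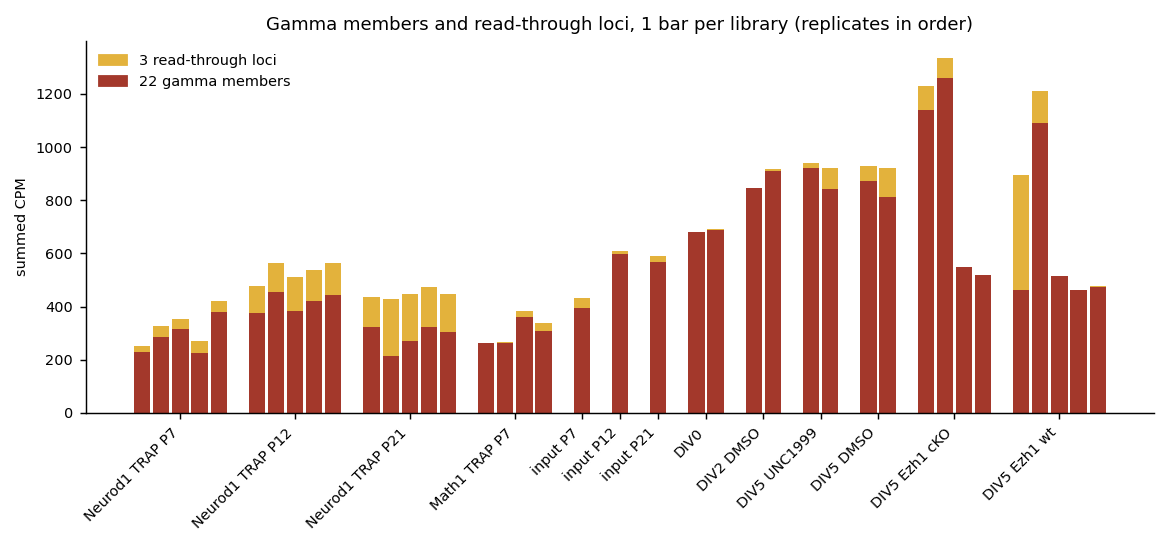
Summed CPM of the 22 gamma members (red) and of the 3 read-through loci (yellow) stacked in 1 bar per library, with replicates in order within each group. The loci are a larger share at P21 than at P7, are near 0 in set B of the Ezh1 experiment (cKO replicates 3 and 4, wt replicates 3 to 5), and have their largest summed CPM in Ezh1 wt replicate 1.

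Genes known for promoter choice and silencing at the clusters mostly fell with age and in culture. Of 20 such genes, 2 rose and 15 fell at P12 against P7, 1 rose and 14 fell at P21 against P12, and 2 rose and 16 fell at DIV2 against DIV0. Their median log2 fold change was -0.80, -0.37 and -0.70 in these comparisons, against -0.04, 0.00 and 0.02 for all genes. Of all genes tested, 31.5% rose and 36.7% fell, 32.4% rose and 32.7% fell, and 36.4% rose and 35% fell, in the same order. Ctcf, which anchors loops at the promoters, averaged 148 CPM at P12 and 227 CPM at P7 (log2 fold change -0.59 ± 0.06, adjusted p = 2.1e-08, edgeR). The cohesin subunit Rad21 averaged 313 CPM at DIV2 and 688 CPM at DIV0 (-1.11), and Smchd1, which represses the clusters, averaged 105 CPM at DIV2 and 193 CPM at DIV0 (-0.84). An exception was the DNA methyltransferase Dnmt3a, which rose at DIV2 (1.33 ± 0.05), with 356 CPM at DIV2 and 145 CPM at DIV0. Ezh2 averaged 106, 32.5 and 7.30 CPM at P7, P12 and P21, and Ezh1 averaged 33.4, 56.1 and 86.0 CPM.

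Protocadherins outside the clusters were called in both directions at most steps. Of 12 such genes, 2 rose and 7 fell at P12 against P7, 0 rose and 7 fell at P21 against P12, 7 rose and 5 fell at DIV2 against DIV0, and 2 rose and 7 fell at DIV5 against DIV2, with median log2 fold changes of -0.61, -0.62, 0.52 and -0.54. For all genes the medians in this order were -0.04, 0.00, 0.02 and -0.05. The shares of all genes that rose were 31.5%, 32.4%, 36.4% and 31.1%, and those that fell 36.7%, 32.7%, 35% and 35.7%. Pcdh9 averaged 128 CPM at DIV2 and 23.9 CPM at DIV0 (log2 fold change 2.45 ± 0.07), and Pcdh7 averaged 3.45 CPM at P21 and 26.6 CPM at P12 (-2.80 ± 0.14). Of 18 genes for partners of the clustered proteins, 7 rose and 5 fell at P12 against P7, 4 rose and 8 fell at P21 against P12, 8 rose and 7 fell at DIV2 against DIV0, and 2 rose and 12 fell at DIV5 against DIV2, with medians of 0.17, -0.08, 0.06 and -0.27. The all-gene medians and shares given above are for these same steps. Ptk2, a kinase inhibited by the alpha and gamma tails, averaged 56.9 CPM at P12 and 111 CPM at P7 (-0.94 ± 0.06).

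Genes next to the clusters on chromosome 18 were also called in both directions. Of 11 neighbours tested in TRAP libraries, 4 rose and 2 fell at P12 against P7, and 7 rose and 2 fell at P21 against P12 (medians 0.00 and 0.38). Of 12 tested in culture, 3 rose and 4 fell at DIV2 against DIV0, and 3 rose and 6 fell at DIV5 against DIV2 (medians -0.01 and -0.19). Of all genes, 31.5% rose and 36.7% fell, then 32.4% and 32.7%, at these TRAP steps (medians -0.04 and 0.00). At the culture steps 36.4% rose and 35% fell, then 31.1% and 35.7% (medians 0.02 and -0.05). One neighbour, Rell2, averaged 54.7 CPM at DIV2 and 3.09 CPM at DIV0 (log2 fold change 4.16 ± 0.15), and 49.3 CPM in Neurod1 TRAP and 4.40 CPM in Math1 TRAP at P7 (3.56 ± 0.14), while Taf7, which lies between the beta and gamma clusters, fell at DIV2 (-0.89).

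In the remaining comparisons, 2 of the 20 genes for promoter choice and silencing rose and 17 fell in Neurod1 against Math1 TRAP. Of all genes tested, 36.5% rose and 35.8% fell there, and 6.36% rose and 5.53% fell with UNC1999. Of the 12 protocadherins outside the clusters, 6 rose and 4 fell in Neurod1 against Math1 TRAP, and Pcdh9 and Pcdh17 rose and Pcdh10 fell with UNC1999. Of the 18 partners, 10 rose and 5 fell in Neurod1 against Math1 TRAP, and Cyfip2 rose and Ret fell with UNC1999. Of the neighbours, 4 of 11 rose and 4 fell in Neurod1 against Math1 TRAP, and 0 rose and 1 of 12 fell with UNC1999. The UNC1999 calls of Pcdh9, Pcdh10, Cyfip2 and Ret were each lost without 1 or more of the 4 libraries. No gene of these lists was called in Ezh1 cKO against wt cultures.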

How the data were processed

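Poly(A) RNA libraries were sequenced as 75-bp single-end reads, per the labels. The deposited table holds estimated counts per Entrez gene; Salmon 0.8.2 and the mm10 build are listed in the submitters' processing notes, and the annotation and the use of strand are not given in the sources used here. The deposited expected counts were rounded to whole numbers. Of the 24100 genes, 24045 had a symbol in the RefSeq table; 1041 genes were blank in the Ezh1 libraries, none of them a member. CPM was taken over each library's total. TRAP libraries, TRAP with inputs (age as a factor), cultures and Ezh1 cultures were fitted apart with edgeR's robust quasi-likelihood test (edgeR 4.0.16; R 4.3.3). Low genes were dropped by filterByExpr, with its minimum count at 10 and its minimum total at 15, and libraries were scaled by TMM. P-values were adjusted by Benjamini-Hochberg over all genes tested, at 0.05. SE is the log2 fold change over the square root of F. The fit was checked on simulated counts. Depth was 12.1 to 38.5 M counts per library. Same-numbered Ezh1 libraries deviated together (r 0.82 to 0.90), so the blocked fit is given beside that result. Same-numbered libraries also lie in the same set, A or B. For cKO replicates 1 and 4 the wt library that deviated most alike had another number, so the number is not a known pairing. The members and gene lists were chosen with earlier results of these data known. Genes named are the C-type isoforms, up to 3 called members per cluster and direction with the largest change, the 3 highest members per cluster, and listed genes with the smallest adjusted p; other members named were chosen after their values were seen. Alternatives were DESeq2 1.42.0 (which also gave other size factors), library size only, no filter, each library left out, a replicate block, only the groups compared, and others named below. The calls of the promoter choice and silencing genes with UNC1999 are not reported here.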

Additional observations from a re-analysis of the deposited data

Results flagged for a closer look

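With 17 measures in 6 groups of 4 or 5 libraries, 102 combinations were examined. Of these, 7 held 1 library whose gap to the nearest other was above Dixon's 95% critical value, where chance gives about 1 in 20. The measures are not independent, since Pcdhgc3 and Pcdhgc5 are part of the gamma sum. Among the Ezh1 wt cultures, replicate 2 had a gamma sum of 1089.7 CPM (the other 4 libraries 461 to 513 CPM), Pcdhgc3 at 576 CPM (208 to 233 CPM) and Pcdhgc5 at 59.3 CPM (11.1 to 25.1 CPM). That group mixes library sets A and B: replicate 2 is in set A, whose cKO libraries had gamma sums of 1138 and 1262 CPM. Replicate 1 of the group, also in set A, had 434 CPM of the read-through locus Gm38667 (0.0752 to 122 CPM in the others). In Neurod1 TRAP at P7, replicate 1 had 22.6 CPM of Gm38667 (38.2 to 42.4 CPM in the others). In Neurod1 TRAP at P12, replicate 3 had 13.3 CPM of Pcdha12 (19.7 to 21.8 CPM in the others), and at P21 replicate 2 had 6.97 CPM of Pcdhgb6 (9.99 to 10.4 CPM in the others).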

How the results depend on the processing

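The number of members called stayed within 1.5 times its value under every alternative run for 8 of the 10 comparisons; the exceptions were TRAP against input and UNC1999 against DMSO. TRAP against input gave 15 calls, 40 with library size only, 9 without the P21 libraries and 8 to 17 with a library left out. UNC1999 against DMSO gave 6 calls, 2 with DESeq2 and 1 to 3 with a library left out. Neurod1 against Math1 gave 27 calls and 24 with Math1 replicates 1 and 2 only. With Math1 replicates 3 and 4 only it gave 18, at the edge of the 1.5 times range. With a library left out, the counts ran from 30 to 39 for P12 against P7, 24 to 32 for P21 against P12, 14 to 18 for P21 against P7, 22 to 29 for Neurod1 against Math1, 48 to 51 for DIV2 against DIV0, 33 to 38 for DIV5 against DIV2, 39 to 43 for DIV5 against DIV0 and 0 to 0 for Ezh1 cKO against wt. Where an arm kept 1 library, it was assumed to vary like the other groups. Replicate numbers did not pair the TRAP or culture libraries (r -0.33 to 0.24 and -0.16 to 0.08), and with the number as a replicate block the calls were 36, 29, 16 and 27 for the TRAP comparisons in the order above, 51, 39 and 43 for the culture times, 5 for UNC1999 and 0 for Ezh1 cKO against wt. No paired analysis was possible because the inputs carry no replicate numbers, for TRAP against input. With the DIV2 numbers exchanged in the block, a choice made after seeing the data, DIV5 against DIV2 gave 3 members higher and 38 lower. With the library set as a factor, or within set A or set B alone, also chosen after seeing the data, Ezh1 cKO against wt gave 0 calls. With library size only, the log2 fold change turned to -0.0295 for Ezh1, TRAP against input, and to -0.0265 for Ctcf, TRAP against input; the cause was not tested. Depth limits Pcdhb1, Pcdha1 and Pcdha8, and shared exons limit how far alpha and gamma isoforms can be told apart.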
